A study of Homo sapiens with 24 samples.

Results

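The comparison described here set 2 VHL mutant clones of HK2 cells, MUT10 and MUT35, against the clone WT8 after doxycycline (dox) had been taken away. HK2 is an immortalised human proximal tubule cell line of the kidney. It used the 12 dox off libraries of 24 in the series, 4 for each of 3 clones, and left the 12 dox on libraries for a second look at the same genes. All 3 are single-cell clones that carry a VHL transgene which is transcribed while dox is present. In WT8, labelled wild type, the endogenous gene is intact, and in MUT10 and MUT35, labelled VHL mutant, it was cut by CRISPR-Cas9, so that dox withdrawal leaves WT8 with its own VHL and the mutant clones with none that works. WT8 is 1 clone, and every other difference between it and the mutant clones, including whatever differs between single cells of one line, cannot be told apart from VHL status in this contrast. The sources are not of one mind on WT8: its labels call it wild type in both dox states, the series description places the dox off libraries of all 3 clones among the knockouts, and a sentence of the study's methods counts WT8 among the VHL mutated derivatives. The source tissue is labelled lung beside HK2, and the labels and the study's methods name different library kits. Replicates are not said to come from separate cultures, so p-values measure the spread between these libraries, which may be technical.

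VHL is the part of a ubiquitin ligase that recognises the hypoxia-inducible factors (HIFs). In the presence of oxygen, EGLN enzymes hydroxylate the HIF alpha subunits, VHL binds the hydroxylated form, and the protein is degraded. Without VHL the alpha subunits accumulate, pair with ARNT and bind DNA at a short core, ACGTG or GCGTG, near genes for glucose use, vessel growth and survival in low oxygen. VHL is the gene most often lost in clear cell renal carcinoma, a tumour of the tubule epithelium.

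The guide below is shown because it made the mutation. The 5 promoter stretches are of listed HIF target and glycolysis genes that hold the core ACGTG. Their log2 differences between dox off and dox on were 2.19 (ENO2), 2.17 (LOX), 2.06 (INSIG2), 1.91 (FAM162A) and 1.63 (GBE1). They were picked in order of this difference, among listed genes higher in every library of both mutant clones than in any WT8 library. The size of the differences therefore comes from the choice and says nothing about the core. Not every listed gene was considered in this choice, so these need not be the largest differences. The guide matches hg38 chr3:10142089-10142108 on the plus strand, in exon 1 of VHL (ENSG00000134086, chr3:10141778-10153667), inside the coding sequence, with 258 coding bases before the cut. It had 1 exact match on chromosome 3, and its capitals mark the PAM, the bases that Cas9 needs beside the target.
VHL sg6: cgcgcgtcgtgctgcccgtaTGG
The promoter stretches of 60 bases come from RefSeq (GRCh38.p14), each printed on the strand of its gene. Capitals mark ACGTG or GCGTG, or the same cores read on the other strand as CACGT or CACGC. They are chr12:6914435-6914494 (plus) for ENO2, neuronal enolase, chr5:122078269-122078328 (minus) for LOX, which cross-links collagen, chr2:118088349-118088408 (plus) for INSIG2, which restrains sterol synthesis, chr3:122384071-122384130 (plus) for FAM162A, a mitochondrial protein, and chr3:81761725-81761784 (minus) for GBE1, the glycogen branching enzyme.
ENO2: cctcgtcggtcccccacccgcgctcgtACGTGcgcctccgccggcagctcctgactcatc
LOX: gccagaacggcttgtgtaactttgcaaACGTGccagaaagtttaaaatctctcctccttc
INSIG2: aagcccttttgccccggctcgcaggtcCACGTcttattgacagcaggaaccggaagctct
FAM162A: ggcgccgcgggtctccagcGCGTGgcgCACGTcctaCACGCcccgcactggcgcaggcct
GBE1: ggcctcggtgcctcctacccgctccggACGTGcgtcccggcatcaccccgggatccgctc

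Within 250 bases before the start site, on either strand, ACGTG was found in 18.7% of 27305 promoters, in 23.6% of the 10614 promoters matched to genes tested here, and in 29 of 59 (49.2%) of those matched to the listed HIF target and glycolysis genes. GCGTG was found in 31.9%, 45.6% and 54.2% of the same sets. The marked ACGTG lay 113 bases before the start site in ENO2, 37 in LOX, 90 in INSIG2, 79 in FAM162A and 107 in GBE1. A match describes the letters only and is not a measured binding site.

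The deposited values are expected counts per gene, totalling between 8506587 and 18196003 in the 12 libraries, and 13565 of 26475 genes passed the filter on low counts. Levels are given as CPM, the count scaled to a common library total after TMM scaling. HK2 identity was only in part visible in the markers: 10 of 30 proximal tubule genes were tested, and SLC5A1, SLC22A6 and SLC22A8 were among those that had no count in any of the 12 libraries. Of 8 lung epithelium markers only AGER was tested, SFTPA1 and SFTPC were at 0 throughout, and their summed level was 2.03 to 2.71 CPM in WT8, 1.79 to 2.81 in MUT10 and 1.06 to 2.46 in MUT35. Of 8 immune markers 2 were tested, CD3E, MS4A1 and NKG7 were at 0, and the sum was 143 to 165 CPM in WT8, 363 to 563 in MUT10 and 163 to 183 in MUT35, nearly all of it CD68, a lysosomal protein. Endothelial markers, 1 of 7 tested, summed to 3.38 to 4.003, 2.31 to 3.65 and 5.91 to 8.45 CPM in the same order, and fibroblast markers, 3 of 9 tested, from at least 93.7, 34.8 and 69 to at most 100, 39.96 and 78.4 CPM. The part of these markers in the results was not tested. MUT10 replicate 4 stood apart: its counts departed from those of its sister libraries by a chi-square per gene of 12.6 to 27.8, against 1.94 to 7.16 for all other pairs, and its level fell by 0.251 on the log2 scale per 10 points of GC content, against a range of -0.0832 to 0.184 in the other 11. Without it the counts given next were 3556 genes higher and 3767 lower.

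A gene was called by asking for an adjusted p under 0.05 in the mean of the mutant clones against WT8 and the same direction in each clone. By this rule 6816 genes (50.2% of those tested) were called. Of all genes tested, 3343 (24.6%) were higher in the mutant clones and 3473 (25.6%) were lower. Most of these changes were small, with a median absolute log2 fold change of 0.51, and a change of over 2-fold was seen in 606 genes (4.47%) that were higher and 620 (4.57%) that were lower. In 1848 genes (13.6%) called higher every library of both mutant clones lay above every WT8 library, and in 1957 (14.4%) called lower every one lay below. A further 626 genes passed the threshold with the clones on opposite sides of WT8 and were not called. With so many genes called, a group of genes is read below against these shares and against the median log2 fold change over all genes tested, which was 0.00.

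VHL itself did not separate the genotypes. Its level was 28.6, 26.1, 32.4 and 32.1 CPM in WT8, 27.2, 30.2, 28.3 and 33.1 in MUT10, and 17.9, 17.6, 18.2 and 17.97 in MUT35. MUT10 overlapped WT8 and only MUT35 lay below it. The difference in mean log2 CPM from WT8 was -0.0045 in MUT10 (exact permutation p = 0.971, 2-sided, n = 4 and 4) and -0.72 in MUT35 (exact permutation p = 0.0286, the smallest that 4 against 4 can give). The mean of the clones passed the threshold at -0.37 (SE 0.07, edgeR adjusted p = 0.00041), a call that was lost when MUT10 replicate 1, MUT10 replicate 3, WT8 replicate 3 or WT8 replicate 4 was left out. The mean was then still -0.33 to -0.36, with edgeR adjusted p of 0.00075 to 0.0040, and the call was lost because MUT10, near 0, no longer had the same sign as MUT35. A gene cut in its first exon may still give a transcript that is counted, and the counts do not tell the transgene from the endogenous gene. This level therefore checks neither the mutation nor the label, and why the mutant clones differ in it was not tested. With dox the mean level was 220 CPM in WT8, 381 in MUT10 and 229 in MUT35.

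Of the other parts of the ligase, UBE2M, the enzyme that attaches NEDD8 to its cullin, was higher by 0.36 on the log2 scale and TCEB2 (elongin B) by 0.19, of 7 members tested. The TCEB2 call was lost on leaving out any of 6 libraries (MUT10 replicates 2 and 3, MUT35 replicate 1 and WT8 replicates 2, 3 and 4). Among the HIF subunits ARNT was higher by 0.28, while HIF1A (-0.02) and EPAS1 (-0.09), which encode the alpha subunits that VHL destroys as proteins, did not pass the test. The hydroxylases that mark those proteins for VHL were higher: 3 of 4 were called, with a median of 0.69. EGLN3 stood at 2.99, 3.82, 3.31 and 4.43 CPM in WT8, at 18.8, 20.3, 20.9 and 20.6 in MUT10, and at 9.61, 8.86, 9.76 and 9.52 in MUT35, with no overlap between the clones and a mean log2 fold change of 1.93 (SE 0.11, edgeR adjusted p = 2.2e-10). EGLN1 was at 50.02, 50.6, 52.97 and 49.8 CPM in WT8, at 102, 116, 106 and 140.3 in MUT10 and at 101, 90.8, 102 and 108 in MUT35, so that both mutant clones were near the same level, 1.09 above WT8 on the log2 scale (SE 0.08, edgeR adjusted p = 7.0e-09). HIF1AN, which hydroxylates an asparagine in the HIF activation domain, rose by 0.29, and EGLN2 did not pass the test at 0.21.

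Secreted and signalling products of HIF targets were raised in the mutant clones, by very unequal amounts. Of 13 tested, 7 were higher and 1 lower, with a median log2 fold change of 0.96. VEGFA, the main growth factor of blood vessels, was at 47.1, 45.1, 44.3 and 48.3 CPM in WT8, at 109.5, 98.7, 98.5 and 92.02 in MUT10 and at 79.4, 75.1, 79.1 and 89.5 in MUT35 (log2 fold change 0.96, SE 0.06, edgeR adjusted p = 1.9e-09). ADM, the vasodilator adrenomedullin, was at 6.47, 4.46, 5.48 and 6.56 CPM in WT8, at 29.8, 30.3, 31.1 and 27.6 in MUT10 and at 21.96, 21.8, 20.8 and 20.2 in MUT35 (2.12, SE 0.10, edgeR adjusted p = 1.4e-11). In both genes MUT10 lay above MUT35 and MUT35 above WT8, library by library for ADM and for VEGFA. The order was the other way for IGFBP3, which binds insulin-like growth factors: it was at 104, 97.3, 99.97 and 97.1 CPM in WT8, at 258, 232, 243 and 199.6 in MUT10 and at 902, 902, 876 and 856 in MUT35. The receptor gene KISS1R had no count in any WT8 library, and was at least 48.9-fold higher in MUT10 and at least 20.9-fold higher in MUT35, taking 3 counts over the 4 WT8 libraries as the floor, and with KISS1R at these bounds the list's median was the same. PDGFB, a growth factor for pericytes, fell by 0.53. TGFA, an EGF receptor ligand, was on opposite sides of WT8 in the clones, at -0.28 in MUT10 and 1.62 in MUT35.

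HIF targets that act on pH, mitochondria and cell fate had the largest median log2 fold change of the HIF and glycolysis lists. Of 34 tested, 28 were higher and 2 lower, and the median log2 fold change was 1.30 (1.44 in MUT10 and 1.14 in MUT35). NDRG1, a stress-response protein, was at 48.4, 45.99, 43.97 and 44.4 CPM in WT8, at 768, 693, 721 and 565 in MUT10 and at 267, 292, 267 and 298 in MUT35 (3.27, SE 0.08, edgeR adjusted p = 1.3e-14). LOX was at 65.1, 66.9, 65.4 and 66.2 CPM in WT8, at 482, 445, 450.1 and 467 in MUT10 and at 364, 381, 369 and 362 in MUT35 (2.65, SE 0.05, edgeR adjusted p = 3.4e-16). FAM162A was at 48.9, 48.97, 52.4 and 48.8 CPM in WT8, at 330.2, 426, 421 and 534 in MUT10 and at 292, 329, 327 and 266 in MUT35 (2.85, SE 0.11). These 3 genes did not overlap between WT8 and either mutant clone. INSIG2 was at 2.61, 2.55, 3.63 and 4.34 CPM in WT8, at 10.4, 10.8, 14.95 and 15.1 in MUT10 and at 13.8, 12.9, 14.7 and 13.6 in MUT35 (1.98, SE 0.16). BNIP3, which marks mitochondria for removal, rose by 1.75, and ERO1A, which forms disulfide bonds in the endoplasmic reticulum, by 1.81.

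A few members went another way. CA9, the carbonic anhydrase used as a marker of HIF activity, was chosen here for that role and after its values were seen: it was at 0.0966, 0.106, 0.0542 and 0.1703 CPM in WT8 and at 28.7, 21.2, 27.6 and 18.3 in MUT10, but at 0, 0, 0 and 0.107 in MUT35, where the 4 libraries held 1 count. It was higher in MUT10 alone and was not called in the mean (edgeR adjusted p = 0.06). CCND1, cyclin D1, which drives entry into the cell cycle and is a known HIF target in renal carcinoma, was lower: it was at 109, 105, 96.99 and 102 CPM in WT8, at 29.9, 30.2, 28.6 and 22.4 in MUT10 and at 12.9, 14.8, 13.7 and 16.05 in MUT35 (-2.37, SE 0.07, edgeR adjusted p = 1.4e-13). HIGD1A, a mitochondrial protein, fell by 0.31.

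Glycolysis was raised nearly throughout, with 23 of 26 members tested higher, 1 lower and a median log2 fold change of 0.87. SLC2A1, the glucose transporter GLUT1, was at 459.95, 433, 393 and 414 CPM in WT8, at 1100, 940.3, 965 and 713 in MUT10 and at 675, 732, 654 and 739.7 in MUT35 (0.93, SE 0.09, edgeR adjusted p = 1.7e-07). PFKFB4, which sets the level of the activator of phosphofructokinase, was at 7.24, 8.71, 6.02 and 7.67 CPM in WT8, at 73.9, 71.2, 76.8 and 56.5 in MUT10 and at 40.1, 47.5, 40.2 and 43.6 in MUT35 (2.91, SE 0.11). PGK1, which makes ATP late in the pathway, was at 1015, 947, 1019.6 and 971 CPM in WT8, at 2895, 3016, 3044 and 3538 in MUT10 and at 1971, 2101, 2145 and 2094 in MUT35 (1.37, SE 0.06). In each of these 3 genes every mutant library exceeded every WT8 library. ENO2 was at 54.8, 54.9, 52.3 and 53.3 CPM in WT8, at 573, 563, 583 and 443 in MUT10 and at 249.6, 293, 264 and 294 in MUT35 (2.84, SE 0.08, edgeR adjusted p = 5.9e-14), and the lowest MUT10 value came from replicate 4. GBE1, the glycogen branching enzyme, was at 31.2, 27.9, 28.1 and 30.8 CPM in WT8, at 98.3, 114, 109 and 134 in MUT10 and at 73.5, 74.99, 78.6 and 66.97 in MUT35 (1.63, SE 0.08). PDK3, a kinase that keeps pyruvate out of the mitochondrion, rose by 1.24 and PDK1, of the same family, by 0.64. The member that fell was PFKM, the muscle type of phosphofructokinase, by 0.38.

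**Figure D1:**
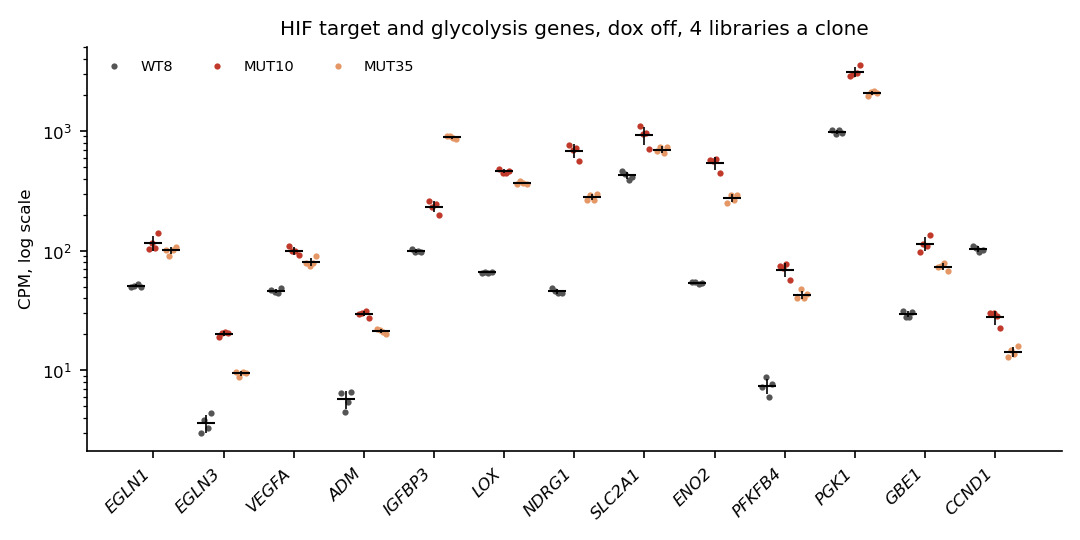
Level in CPM (log axis) of genes of the HIF response in each dox off library, with points for the 4 libraries of WT8, MUT10 and MUT35. CCND1 lies lower in both mutant clones, and the other genes drawn are raised in both mutant clones, with NDRG1 at 565 to 768 CPM in MUT10, at 267 to 298 in MUT35 and at under 50 in WT8.

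Transcripts of respiration genes did not move as those of glycolysis did. Respiration itself is not measured by these counts. The study measured lower oxygen consumption in both mutant clones than in WT8 without dox. Its gene set analysis found oxidative phosphorylation genes suppressed in cells depleted of VHL. Of 37 complex I genes tested 8 were higher and 6 lower (median 0.07), and of 39 in complexes II to V 5 were higher and 10 lower (median -0.03), shares at or under those of all genes. NDUFC1 rose by 0.93 and NDUFS1 fell by 0.51, both subunits of complex I, and COX4I1 of cytochrome oxidase fell by 0.38. Of 29 genes of the TCA cycle and of fatty acid oxidation 4 were higher and 13 lower (median -0.16). CPT1A, which admits fatty acids to the mitochondrion, fell by 1.13, and PPARGC1A, a coactivator that promotes mitochondrial growth, fell by 0.34.

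The same contrast drawn from the 12 dox on libraries, in which the transgene is transcribed in all 3 clones, shares no library with the dox off contrast. In a fit to all 24 libraries, in which 13900 genes were tested, the difference between both contrasts passed the test in 1684 genes (12.1%) that were higher without dox and 1588 (11.4%) that were lower. Most of the listed HIF target and glycolysis genes were among these: 29 of 34 pH and cell fate genes were higher in the difference and 0 lower, as were 24 of 26 glycolysis genes with 1 lower and 8 of 13 signalling genes with 1 lower. With dox the medians of these lists were 0.09, 0.03 and -0.03. Members still passed the test with dox on both sides: 13 of 34 pH and cell fate genes were higher and 7 lower. Among glycolysis genes 8 of 26 were higher and 5 lower, and among signalling genes 2 of 13 were higher and 4 lower. Over all genes tested with dox, 20.6% were higher and 22.6% lower. For single genes, the log2 difference of the mutant clones from WT8 went from 2.12 without dox to -0.33 with dox for ADM, from 2.91 to 0.35 for PFKFB4, from 1.09 to -0.07 for EGLN1, from 0.96 to -0.25 for VEGFA, from 1.98 to -0.07 for INSIG2 and from 1.63 to 0.01 for GBE1. FAM162A kept 0.96 with dox and ENO2 0.66. Of the 4 hydroxylases 3 were higher with dox too, with a median of 0.32: EGLN3 (0.45), EGLN2 (0.51) and HIF1AN (0.20), and 2, EGLN1 and EGLN3, passed the test of the difference. CCND1 differed from the rest: it was -2.34 with dox against -2.37 without, and the difference of -0.03 did not pass the test (edgeR adjusted p = 0.91).

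**Figure D2:**
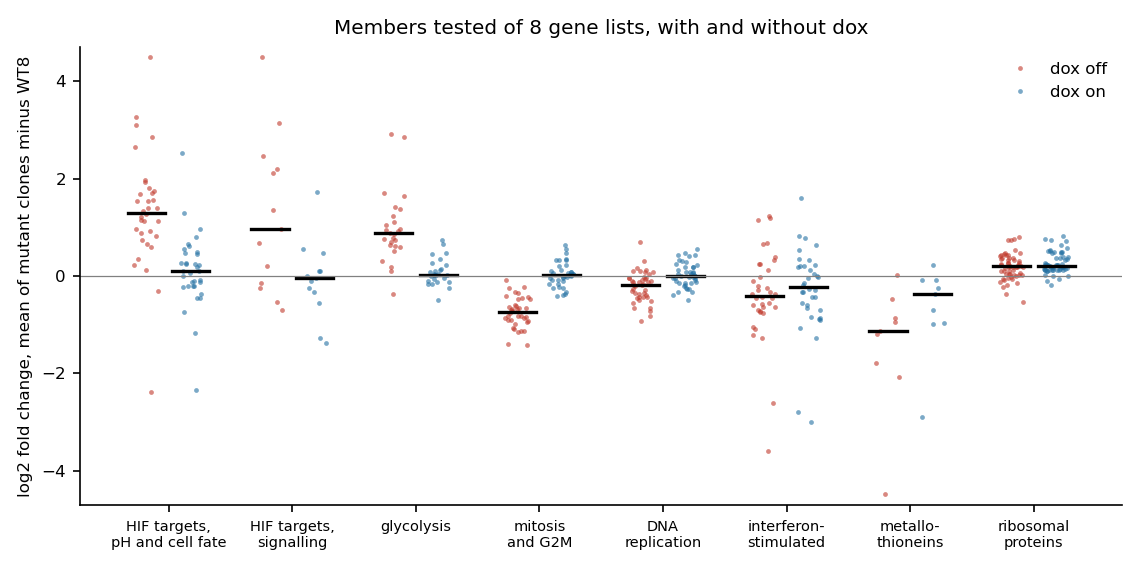
Log2 fold change of the mutant clones against WT8 for each tested member of 8 gene lists, without and with dox, with each list's median marked and 2 points beyond 4.5 drawn at the edge. The HIF target and glycolysis lists lie above 0 and the mitosis list below 0 without dox (median -0.73), and their medians with dox lie near 0, while ribosomal protein genes have nearly the same median in both, 0.20 and 0.21.

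Genes of mitosis fell together. Of 38 tested, 34 were lower and 0 higher, with a median log2 fold change of -0.73 (-0.85 in MUT10 and -0.63 in MUT35). CDC25C, PTTG1, NUF2 and TOP2A were not called. AURKA, a spindle kinase, was at 231, 218, 221 and 230.1 CPM in WT8, at 84.5, 91.6, 81.2 and 94.1 in MUT10 and at 83.3, 84.6, 86.4 and 80.8 in MUT35 (-1.39, SE 0.05, edgeR adjusted p = 4.9e-13). CDC20, which activates the anaphase-promoting complex, was at 342, 319, 315 and 332 CPM in WT8, at 142, 144, 146 and 124 in MUT10 and at 149, 163, 152 and 155 in MUT35 (-1.16, SE 0.05, edgeR adjusted p = 1.0e-11). UBE2C, the ubiquitin-conjugating enzyme of the same complex, was at 950.4, 956, 913 and 909 CPM in WT8, at 418, 385, 419 and 396 in MUT10 and at 527, 560.5, 605 and 530.1 in MUT35 (-0.98, SE 0.05). In all 3 genes both mutant clones lay below WT8 without overlap, and AURKA had the same level in both.

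With dox the median of the mitosis list was 0.02, with 9 members higher and 8 lower. In the difference between dox off and dox on 37 of 38 members were lower and 0 higher. CDC20 went from -1.16 to 0.07, AURKA from -1.39 to -0.39 and UBE2C from -0.98 to -0.38. Genes of DNA replication moved less: 22 of 43 were lower and 3 higher, with a median of -0.19, and 18 were lower in the difference with 1 higher. RRM2, which makes deoxynucleotides, fell by 0.91, and MCM2, part of the replicative helicase, rose by 0.69. CDKN1A (p21), an inhibitor of cyclin-dependent kinases, was at 38.9, 39.8, 33.5 and 33.6 CPM in WT8, at 135, 125, 126 and 101 in MUT10 and at 84.8, 91.999, 86.8 and 97.2 in MUT35 (1.53, SE 0.08, edgeR adjusted p = 1.4e-10), and was 0.65 with dox. Of the 12 CDK inhibitors and D cyclins 3 were higher and 7 lower, with CCND3 lower by 1.09, CCND2 by 0.92 and CDKN1C by 1.17, and with dox they stood at -0.51, -1.68 and -1.36. Of 21 p53 target genes, CDKN1A among them, 7 were higher and 1 lower, with TP53INP1 higher by 0.73 and FAS by 0.34. The libraries are of bulk cultures, so that fewer cells in a phase of the cycle and less RNA per cell cannot be told apart.

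**Figure D3:**
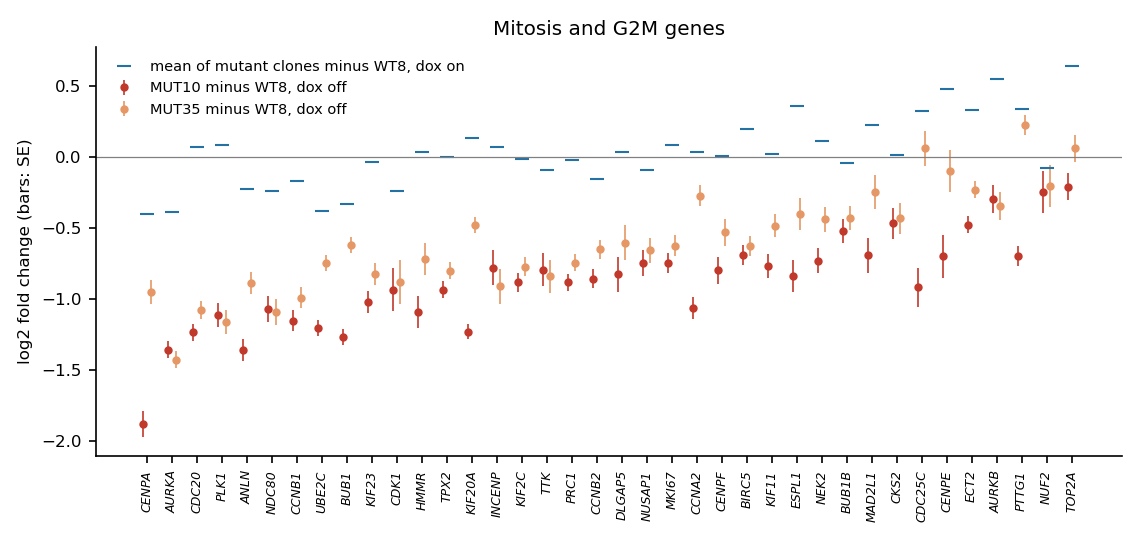
Log2 fold change against WT8 of the tested members of the mitosis list in MUT10 and MUT35 without dox, and of the mean of the clones with dox. Without dox nearly all points lie below 0 in both clones, and with dox they lie about 0, with a median of 0.02.

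Among the genes with the largest differences outside the HIF and mitosis lists, several also differed by more than 2-fold with dox. LRRN1, a membrane protein of developing neurons, was at 0.0966, 0.106, 0.271 and 0.1703 CPM in WT8, at 10.9, 8.798, 11.1 and 11.2 in MUT10 and at 18.9, 19.3, 22.8 and 17.01 in MUT35. Its log2 fold change was 6.22 (SE 0.22, edgeR adjusted p = 5.3e-13) and 5.67 with dox, and the difference of 0.56 did not pass the test (edgeR adjusted p = 0.59). NEFH, the heavy neurofilament, went the other way, from 579.7, 626, 611 and 613 CPM in WT8 to 2.705, 2.22, 2.31 and 2.35 in MUT10 and 3.695, 2.95, 2.12 and 3.74 in MUT35. NEFL, the light neurofilament, rose by 4.78 (SE 0.21), and by 1.75 with dox, so that the partners of one filament moved in opposite directions. PLCB1, a phospholipase of receptor signalling, was at 33.5, 41.6, 36.3 and 34.7 CPM in WT8, at 0.624, 0.598, 0.486 and 0.844 in MUT10 and at 0.633, 0.5905, 1.17 and 1.07 in MUT35 (-5.58, SE 0.13), and at -4.84 with dox. ANK3, which anchors membrane proteins to spectrin, was at 11.2, 12.9, 12.4 and 10.99 CPM in WT8 and at 0, 0.0854, 0.486 and 0.281 in MUT10, and had no count in MUT35, where it was at least 146-fold lower. CYTL1, a secreted protein, was at least 236-fold lower in MUT35, on the same floor. These falls left the genes at or near 0 in the mutant libraries. Other genes that rose most with and without dox were MID1IP1 (5.39 and 5.78), which promotes fatty acid synthesis, the potassium channel KCNJ15 (5.23 and 4.36) and NELL2 (4.85 and 3.39), and others that fell were BGN (-5.74 and -4.88), the matrix proteoglycan biglycan, STRA6 (-5.57 and -4.86), a retinol transporter, and ALOX5AP (-4.98 and -4.50), needed for leukotriene synthesis. Among genes called and past 2-fold without dox, 152 of the 606 that rose were also past 2-fold and higher with dox (25.1% of these and 60.3% of the 252 past 2-fold with dox). For falls it was 331 of 620 (53.4%, and 58.8% of the 563 with dox).

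A second set of strong rises shrank with dox. RORA, a nuclear receptor, was at 0, 0.319, 0.271 and 0.426 CPM in WT8, at 12.2, 15.8, 14.8 and 20.4 in MUT10 and at 13.9, 10.7, 12.3 and 11.8 in MUT35 (5.68, SE 0.28, edgeR adjusted p = 4.0e-11), and was 2.52 with dox. ARFGEF3 was at 3.19, 2.87, 3.47 and 2.64 CPM in WT8, at 38.9, 36.1, 36.8 and 40.99 in MUT10 and at 36.4, 27.6, 29.7 and 37.5 in MUT35 (3.52, SE 0.12), and 0.54 with dox. RRAGD, a GTPase that carries amino acid signals to mTORC1, was at 7.63, 7.65, 7.92 and 7.24 CPM in WT8, at 109, 117, 121 and 128 in MUT10 and at 37.7, 43.1, 43.4 and 36.8 in MUT35 (3.18, SE 0.08), and 0.59 with dox. In all 3 the mutant libraries lay above WT8 without overlap, which was a condition of their being named. RORA is a member of the HIF target list, while ARFGEF3 and RRAGD are on none of the lists. EPHA3, a receptor for ephrins, was at 0.773, 0.8497, 0.434 and 0.852 CPM in WT8, at 11.4, 12.9, 9.73 and 11.9 in MUT10 and at 6.55, 7.204, 6.04 and 5.35 in MUT35 (3.61, SE 0.19), and 0.62 with dox. Its ligands EFNA3 and EFNA1 rose by 2.47 and 1.58, and EFNA2 fell by 1.81. Of 14 ephrins and Eph receptors 5 were higher and 5 lower. HMOX1, heme oxygenase, was at 56.01, 50.7, 48.9 and 50.3 CPM in WT8, at 290.1, 256, 273 and 193 in MUT10 and at 151, 152, 153 and 167 in MUT35 (1.95, SE 0.09), and 0.12 with dox. It is a target of NRF2 as well as of HIF, and of the 23 NRF2 and glutathione genes tested 9 were higher and 5 lower, with AKR1C3 higher by 1.10 and NQO1, a standard NRF2 target, lower by 0.53. The falls that were deeper without dox included MIR205HG, the host transcript of a microRNA of epithelia, at 22.7, 22.9, 26.5 and 24.1 CPM in WT8, 0.312, 0.256, 0.365 and 0.375 in MUT10 and 0.845, 1.42, 0.424 and 0.642 in MUT35, which was -5.52 without dox and -2.18 with dox.

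Genes of the kidney epithelium changed in both directions. ENPEP, the brush border aminopeptidase A, was at 0.966, 0.744, 0.596 and 0.426 CPM in WT8, at 23.5, 22.3, 23.5 and 29.2 in MUT10 and at 36.8, 34.01, 37.01 and 38.1 in MUT35 (5.48, SE 0.15, edgeR adjusted p = 3.2e-14), and 3.70 with dox. Of 10 proximal tubule genes tested 2 were higher and 4 lower. GATM, an enzyme of creatine synthesis, rose by 0.96, while MIOX, which degrades inositol, fell by 0.84 and SLC4A4, the basolateral bicarbonate transporter, by 0.76. Of 11 transcription factors of kidney development tested 4 were higher and 5 lower. SALL1, which maintains nephron progenitors, was at 37.2, 43.7, 37.4 and 38.5 CPM in WT8, at 181, 158, 166 and 146 in MUT10 and at 134, 139, 143 and 147 in MUT35 (1.95, SE 0.07, and 1.85 with dox). OSR1 rose by 1.54 and IRX3 fell by 1.25. PAX8, which defines the renal lineage, was only 0.27 lower.

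Keratins changed in both directions, more of them downward. KRT7 was at 67.2, 56.6, 55.2 and 61.9 CPM in WT8, at 1.98, 2.99, 2.55 and 1.13 in MUT10 and at 0.845, 1.54, 1.38 and 1.28 in MUT35 (-5.18, SE 0.13, edgeR adjusted p = 1.2e-14), and -3.72 with dox. KRT19 was at 14.8, 14.02, 14.6 and 13.03 CPM in WT8, at 55.2, 51.9, 56.4 and 45.8 in MUT10 and at 62.1, 76.9, 60.2 and 69.9 in MUT35 (2.07, SE 0.09), and 2.03 with dox. Both are keratins of simple epithelia, and their changes were opposite in every mutant library. Of 8 keratins tested 6 were lower and 2 higher, and KRT18 fell by 0.89. Of 17 cadherin and junction genes 7 were higher and 5 lower, with the kidney cadherin CDH16 lower by 1.49 and CLDN4 of tight junctions higher by 1.34. DSC3, a desmosomal cadherin outside that list, fell by 5.02. SNAI2 and SNAI1, which repress epithelial genes, fell by 1.01 and 0.85, and ZEB2, of the same kind, rose by 0.54.

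**Figure D4:**
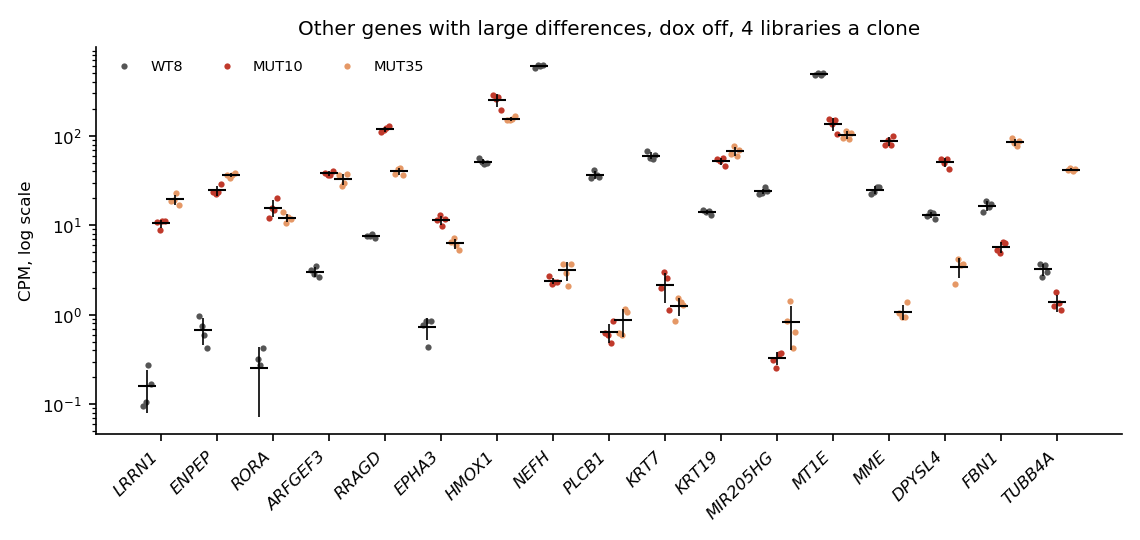
Level in CPM (log axis) of genes not drawn in the plot of the HIF response in each dox off library, with points for the 4 libraries of each clone. A WT8 library of RORA at 0 cannot be drawn on this axis. LRRN1 and ENPEP lie at 8.80 CPM or more in both mutant clones and under 1 CPM in WT8, and NEFH at 579.7 CPM or more in WT8 and under 4 CPM in the mutant clones.

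Among matrix proteases there were more falls than rises. Of 21 matrix protease and plasminogen genes 5 were higher and 10 lower, with the collagenases MMP13 and MMP1 lower by 3.54 and 1.67, and ADAM12 and SERPINE2 higher by 1.97 and 1.78. Of 22 integrins and laminins 8 were higher and 5 lower. LAMA5, the laminin chain of mature epithelial basement membrane, was at 142, 161, 140.3 and 128 CPM in WT8, at 28.7, 23.1, 23.95 and 16.3 in MUT10 and at 19.005, 18.7, 15.6 and 19.7 in MUT35 (-2.80, SE 0.10), and LAMA1, its embryonic counterpart, rose by 1.32. Of 14 collagens 3 were higher and 6 lower, COL4A1 and COL4A2 of basement membrane by 0.67 and 0.61, almost all of it in MUT10 for COL4A1 (-1.20 against -0.14 in MUT35). The fibroblast markers gave no common direction, since LUM fell by 1.37 and DCN rose by 4.11 (SE 0.41, edgeR adjusted p = 2.7e-07) to no more than 2.95 CPM.

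Members of the TGF-beta, BMP and WNT families changed in both directions. GREM1, a BMP antagonist, was at 540.1, 573, 549 and 542 CPM in WT8, at 48.9, 42.7, 45.1 and 50.7 in MUT10 and at 129, 134, 126 and 143 in MUT35 (-2.80, SE 0.05, edgeR adjusted p = 3.3e-16), and -2.03 with dox. DKK1, a WNT antagonist, was at 97.3, 99.3, 98.7 and 95.99 CPM in WT8, at 17.7, 17.6, 15.7 and 21.3 in MUT10 and at 4.33, 5.196, 4.45 and 4.81 in MUT35 (-3.41, SE 0.07), and -2.16 with dox. Both genes fell in every mutant library, GREM1 further in MUT10 and DKK1 further in MUT35. INHBA, the activin A subunit, fell from a mean of 293 CPM in WT8 to 42.6 in MUT10 and 72.0 in MUT35, while SMAD9, a BMP signal carrier, and ID2, a BMP target, rose by 2.41 and 1.51. GDF15, a distant ligand of the TGF-beta family, rose by 1.18, and SFRP2, a secreted WNT antagonist, by 1.88. As lists these families were not tilted: 8 of 23 TGF-beta, BMP and activin genes were higher and 8 lower, and 4 of 21 WNT genes were higher and 5 lower. Of 17 YAP and TAZ targets 8 were lower and 0 higher, CTGF by 1.64. The median of this list was only -0.08, and -0.12 with dox, where 8 were lower and 6 higher. Of 13 NOTCH pathway genes 5 were higher and 2 lower, and of 33 HOX genes 11 were higher and 9 lower. HOXA13 rose by 3.34 without dox and was at -0.23 with dox, from levels of 0.172 CPM in WT8, 2.56 in MUT10 and 1.43 in MUT35.

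Receptor tyrosine kinase genes included FGFR1, on which the study tested inhibitors. FGFR1 was at 48.4, 51.7, 46.3 and 49.1 CPM in WT8, at 99.03, 85.6, 80.8 and 73.2 in MUT10 and at 92.9, 103, 93.3 and 109 in MUT35 (0.91, SE 0.08, edgeR adjusted p = 3.9e-08). Both mutant clones lay above WT8 without overlap. With dox the value was 0.74, and the difference between the dox states, 0.18, did not pass the test (edgeR adjusted p = 0.28). FGFR2 fell by 2.31, from 8.19 CPM in WT8 to 0.420 in MUT10 but only to 6.28 in MUT35, and the ligand FGF11 rose by 1.28. SPRY1, a feedback inhibitor of this signalling, was at 1.55, 2.55, 2.22 and 2.2997 CPM in WT8, at 14.1, 12.98, 14.1 and 13.04 in MUT10 and at 14.3, 16.7, 17.6 and 15.5 in MUT35 (2.76, SE 0.12), and 1.19 with dox. Of 25 ERK feedback and immediate early genes 6 were higher and 13 lower, with FOSB lower by 1.36 and DUSP6 higher by 0.64. Of 10 genes of the EGF receptor family and its ligands 3 were higher and 2 lower.

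Of 36 interferon-stimulated genes 19 were lower and 7 higher, with a median of -0.41 without dox and -0.23 with dox, and in the difference between the dox states 5 were lower and 3 higher. OASL and CMPK2 fell by 3.59 and 2.60 from levels under 4 CPM, and SAMD9L rose by 1.24. TMEM173 (STING), the adaptor that answers DNA in the cytosol, was at 17.8, 19.3, 17.2 and 17.9 CPM in WT8, at 0.832, 1.37, 1.95 and 0.844 in MUT10 and at 0, 0, 0.106 and 0.107 in MUT35, where WT8 was 328-fold higher (exact 95% interval 90.6 to 2714, for counting error only). IL6, an inflammatory cytokine, was at 147, 141, 129 and 132 CPM in WT8, at 62.9, 53.3, 56.05 and 54.03 in MUT10 and at 19.1, 23.9, 21.3 and 21.8 in MUT35 (-1.97, SE 0.06), and IL11 fell by 1.57. Of 14 cytokines and chemokines tested 5 were higher and 3 lower, CXCL16 being higher by 1.51. Of 16 NF-kappaB genes 4 were higher and 4 lower, and of 16 genes of MHC class I presentation 6 were higher and 7 lower.

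Metallothioneins, small proteins that bind zinc and copper, fell nearly as a family: 8 of 9 tested were lower and 0 higher, with a median of -1.12, against -0.36 with dox. MT1E was at 474, 508, 485 and 508 CPM in WT8, at 153, 136, 149.7 and 105 in MUT10 and at 95.7, 113, 93.2 and 109 in MUT35 (-2.06, SE 0.08, edgeR adjusted p = 1.8e-12), and -0.97 with dox. MT1G was at 23.7, 20.1, 19.4 and 25.2 CPM in WT8, at 9.57, 7.77, 8.997 and 6.47 in MUT10 and at 0.422, 0, 0 and 0 in MUT35, with a fitted log2 fold change of -4.47 that became -6.15 without MUT35 replicate 1. The copies are near-identical, and the counting could have split reads among them, so that single members are uncertain. MT1E, MT1F and MT1G lie on chromosome 16 between 40 and 60 Mb, where the median over all genes tested was -0.456 without dox and -0.439 with dox, so that the list's median with dox was no lower than that of its surroundings. The uncertainty of single members from split reads holds also for the HLA genes and for the pregnancy glycoproteins PSG5 and PSG8.

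Lists of sterol and stress genes were called at shares near or under those of all genes. Of 30 cholesterol and fatty acid synthesis genes 6 were higher and 8 lower, with INSIG1 and ELOVL6 higher by 1.55 and 1.81. Of 25 genes of the integrated stress response and serine synthesis 5 were higher, TRIB3 by 1.10, and 3 were lower. Ribosomal protein genes were higher in 30 of 58 and lower in 3, with a median of 0.20, against 0.21 with dox. None of the cancer-testis genes passed the filter, and of 13 imprinted genes 3 were higher and 6 lower.

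Where MUT10 and MUT35 were compared with WT8 one at a time, 3490 genes (25.7%) were higher and 3519 (25.9%) lower in MUT10, and 3683 (27.2%) and 3600 (26.5%) in MUT35. Both contrasts share the WT8 libraries. In 4205 genes both clones passed on the same side, and in 565 on opposite sides, of which 254 were higher in MUT10 and lower in MUT35. MME, the brush border peptidase neprilysin, led these: it was at 22.4, 23.5, 26.8 and 27.1 CPM in WT8, at 78.95, 89.4, 79.1 and 99.997 in MUT10 and at 1.06, 0.945, 0.954 and 1.39 in MUT35. DPYSL4, of an axon guidance family, was at 12.7, 14.1, 13.8 and 11.7 CPM in WT8, at 54.7, 49.5, 55.4 and 42.3 in MUT10 and at 2.22, 4.25, 3.61 and 3.74 in MUT35. In the other sense, FBN1, the microfibril protein fibrillin, was at 14.1, 18.7, 16.2 and 17.4 CPM in WT8, at 5.31, 4.87, 6.57 and 6.29 in MUT10 and at 95.4, 82.9, 76.99 and 86.97 in MUT35. TUBB4A, a neuronal tubulin, was at 3.67, 2.66, 3.63 and 2.98 CPM in WT8, at 1.25, 1.79, 1.34 and 1.13 in MUT10 and at 41.8, 43.9, 40.4 and 42.1 in MUT35. In each of these 4 genes the clones stood on either side of WT8 without overlap. Some genes called in the mean were at unlike levels in the mutant clones. ADCY8, an adenylyl cyclase, had 1 count in the 4 WT8 libraries and was 875-fold higher in MUT10 (exact 95% interval 156 to 34598), where it stood at 17.0 to 18.6 CPM, and 53.1-fold higher in MUT35 (exact 95% interval 8.98 to 2149), where it stood at 0.749 to 1.48 CPM.

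Whole stretches of the genome moved together, and they did so alike in both dox states. On chromosome 17 the median log2 fold change of 784 genes tested was 0.475, with 68.6% called higher and 5.99% lower, and it was 0.53 in MUT10, 0.437 in MUT35 and 0.508 with dox. All its 20 Mb windows lay between 0.441 and 0.525. On chromosome 2 the 879 genes tested had a median of -0.291, which was -0.522 in MUT10 and -0.0642 in MUT35. On chromosome 19 it was the reverse, with -0.004 in MUT10 and 0.39 in MUT35. Parts of several chromosomes, among them 3, 4, 5, 7, 16 and 20, stood apart from the rest of the same chromosome: windows of chromosome 3 between 100 and 160 Mb had medians of 0.331 to 0.419 against -0.068 to 0.0478 before 80 Mb, windows of chromosome 16 beyond 40 Mb -0.456 to -0.414 against 0.00366 and 0.0394 before, windows of chromosome 20 beyond 40 Mb -0.411 and -0.407, and the last window of chromosome 5 was 0.546 in MUT35 and 0.0323 in MUT10. On chromosome 4 the windows before 40 Mb had medians of -0.273 and -0.289 and those beyond 60 Mb 0.159 to 0.264, and on chromosome 7 those before 60 Mb had 0.185 to 0.21 and those beyond -0.117 to 0.0698. DNA copy number was not measured, and a change of dosage in a clone cannot be told apart from regulation. Taken relative to the median of its chromosome in each clone, 526 genes were called and more than 2-fold higher and 567 lower, against 606 and 620. On that scale the list medians were 1.24 for the pH and cell fate targets, 0.94 for glycolysis and -0.73 for mitosis. They were -0.40 for interferon-stimulated genes, -0.93 for metallothioneins and 0.16 for ribosomal proteins. A shift confined to part of a chromosome is only partly taken out on this scale. The median of chromosome 16 was -0.174, against -0.456 in the window between 40 and 60 Mb that holds MT1E, MT1F and MT1G.

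**Figure D5:**
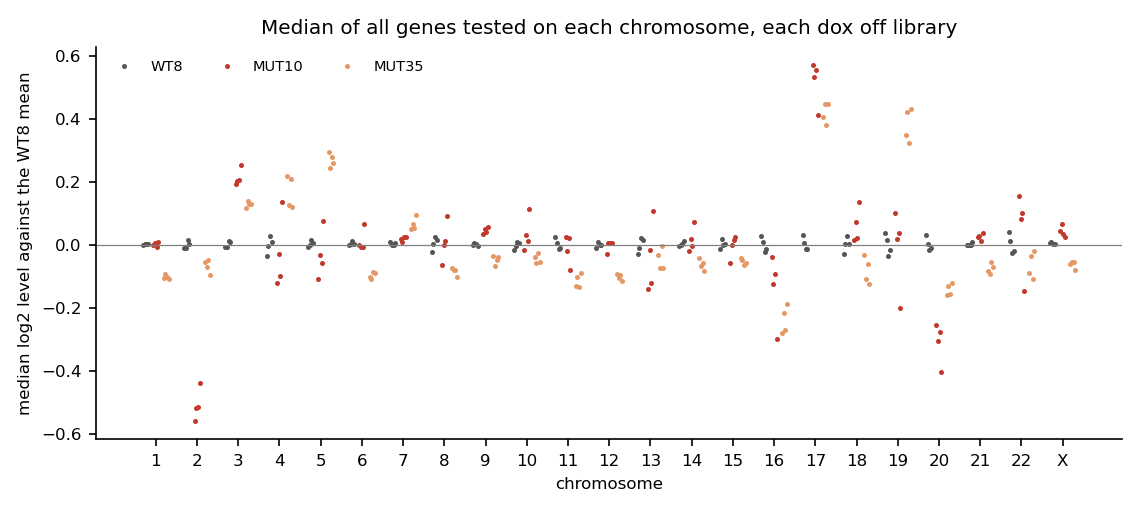
Median log2 level against the WT8 mean over the genes tested on each chromosome, with points for the 12 dox off libraries. Chromosome 17 is raised in all 8 mutant libraries, chromosome 2 is lower mainly in MUT10 and chromosome 19 is higher in MUT35 alone.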

How the data were processed

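RNA from HK2 clones was sequenced in 24 libraries, 4 for each of 3 clones with and without dox. The authors mapped reads to hg38 with Bowtie2 and RSEM (named in the submitters' processing notes) and deposited expected counts per gene, which were rounded here to whole numbers. The 12 dox off libraries were fitted with edgeR 4.0.16 in R 4.3.3: filterByExpr by clone, TMM scaling, 1 mean per clone and the quasi-likelihood test, with Benjamini-Hochberg adjustment over all 13565 genes tested. The contrast was the mean of MUT10 and MUT35 minus WT8, called at an adjusted p under 0.05 with the same sign in each clone. The difference between dox states came from a fit to all 24 libraries. The script was tested on simulated data. Alternatives were RLE or no scaling, other filters, DESeq2 1.42.0, limma-voom (limma 3.58.1), removal of a GC trend, a replicate block and leaving out each library. All 24 libraries differed in total count, so that none was an exact copy of another.

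Named genes are VHL, and then, among genes that were called, averaged 50 counts or more and had non-overlapping libraries, the 12 largest rises and 12 largest falls, the 8 in each direction with the largest difference between dox states, the 8 in each direction past 2-fold in both dox states, then the 5 most opposite between the clones in each sense, and up to 4 called members of each list per direction by adjusted p. Other genes named (such as INSIG2, FAM162A, GBE1, SLC2A1, CA9, TGFA, KISS1R, PAX8, PDK1 and list members given as not called) were added after their values were seen. The members and lists were chosen with earlier results of these data known. Genes were placed on chromosomes through GENCODE v44, 23161 by symbol and 1370 by an older symbol, and 1944 were not matched. Floors are 3 counts over the 4 libraries of a group, and intervals and floors cover counting error only, with totals of 8506587 to 18196003 per library. Some list members are not reported here by name.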

Additional observations from a re-analysis of the deposited data

Results flagged for a closer look

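Over the 50 genes whose library values were examined, 7 of 150 groups of 4 had a library that stood apart from its sisters by Dixon's criterion, where chance gives about 1 in 20. They were CA9 in MUT35 (0.107 CPM), ENO2 in MUT10 (443 CPM), FAM162A in WT8 (52.4 CPM), CDC20 in MUT10 (124 CPM), LRRN1 in MUT10 (8.80 CPM), HMOX1 in MUT35 (167 CPM) and MT1G in MUT35 (0.422 CPM). For ENO2 and CDC20 the library was MUT10 replicate 4, and for LRRN1 it was MUT10 replicate 2. In MUT35 the CA9 value rests on 1 count and that of MT1G on a few.

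The mutant clones differed from WT8 by unlike amounts in the dox states, by the test of the difference itself, in 1684 genes that were higher and 1588 that were lower without dox. By rule the named ones with the largest differences among genes past 2-fold were, as log2 values, RASD2 (3.91), RORA (3.17), NEFL (3.04), TRABD2B (3.001), EPHA3 (2.99), ARFGEF3 (2.99), SPNS2 (2.63) and RRAGD (2.60). RASD2 was the one among them that changed sides, from 1.07 without dox to -2.83 with dox. The deepest falls in the difference were MIR205HG (-3.33), ANK3 (-3.03), CYTL1 (-2.12), SFTA1P (-1.95), ST6GALNAC5 (-1.67), CCDC80 (-1.62), TMEM173 (-1.57) and MT1G (-1.57), and for ANK3, CYTL1, TMEM173 and MT1G these are fitted values with mutant libraries at or near 0.

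The genes most opposite between MUT10 and MUT35 were chosen for lying on opposite sides of WT8, so that their difference is a description and no further test. MUT10 minus MUT35 was 6.30 on the log2 scale for MME, 4.51 for CHI3L1, 3.98 for HTRA3, 3.87 for DPYSL4 and 3.79 for LCN2. It was -4.91 for TUBB4A, -3.90 for FBN1, -3.66 for SLC1A1, -3.07 for CLIC2 and -2.55 for MARCH3.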

How the results depend on the processing

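No named gene that was called changed its direction under the settings in which it was fitted again. For the other called genes only the totals were recomputed, so their directions were not followed. Gene lists, chromosome medians and VHL by library were recomputed under other scalings only, and the difference between dox states under other scalings, tests and the block. The counts of genes more than 2-fold higher or lower went from 606 and 620 to 394 and 298 when at least 10 counts were asked of every library, a filter that removes genes near 0 in 1 clone, many of the named ones among them, and to 763 and 923 with no filter. Asking that both clones pass on their own left 2117 of 3343 genes higher and 2088 of 3473 lower, and fitting each clone with WT8 alone left 2128 and 2155. With scaling by library size alone, complex I genes called higher went from 8 to 5, those of complexes II to V from 5 to 3, and the MUT10 median of chromosome 3 (over library values) from 0.214 to 0.18. Leaving out each library in turn gave 3050 to 3556 genes higher and 3150 to 3767 lower, and 625 to 652 and 614 to 652 past 2-fold. For MUT10 it gave 3154 to 3724 higher and 3121 to 3743 lower, and for MUT35 3384 to 4106 and 3239 to 4110, the highest values being without MUT10 replicate 4. Of the named genes, 18 lost their call under at least 1 setting, AKR1B10, SLC7A11, ANKRD1, TCEB2, ATP5O and KCNQ1OT1 under 7 or more each. MT1G, KRT81, NELL2, TRABD2B and ADCY8 moved by more than 0.58 (log2) on leaving out 1 library, MUT35 replicate 1 (-6.15), MUT35 replicate 4 (-4.89) and WT8 replicates 1 (5.43), 3 (6.63) and 4 (8.50). The cause was not tested.

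The deviations of same-numbered libraries of different clones correlated at -0.447 to 0.402, with 3 of 12 libraries closest to their own number. No pairing by number was seen, but so few libraries cannot exclude one. With the replicate number as a block, 3228 genes were higher and 3343 lower, 606 and 622 past 2-fold, 3317 and 3377 in MUT10, 3544 and 3444 in MUT35, and 1709 and 1637 in the difference between dox states. Genes of few counts are limited by depth, and the direction of those at 0 in a group is known while their fold is bounded on 1 side only.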
